A study of Mus musculus with 4 samples.

Results

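Dystrophin, encoded by Dmd, is the rod-shaped protein that ties the actin cytoskeleton of a muscle cell to a group of membrane proteins and through them to the basement membrane. The 8 genes described here are the listed members of this dystrophin glycoprotein complex, Dmd, Utrn, Dag1, Sgca, Sgcb, Sgcd, Sgce and Sspn, of 32285 genes in each count matrix. They were picked by name, not by any measured value, and all 8 were found in all 4 matrices.

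In the complex, dystroglycan (Dag1) is cut into a part outside the cell, which binds laminin through its sugar chains, and a part in the membrane, which binds dystrophin. The sarcoglycans and sarcospan form a side group in the membrane that holds this link firm, and loss of dystrophin or of several of the sarcoglycans causes muscular dystrophy. Utrophin (Utrn) is a close relative of dystrophin that is made in many tissues and is found in muscle mainly before birth, during repair and at the nerve contact.

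The cells were muscle stem cells of MyoD-KI mice, which carry a knock-in allele at MyoD, a transcription factor of the muscle lineage, read through the red fluorescent protein tdTomato. They were grown for 5 days in growth medium with fetal bovine serum and Ultraser G, sorted for high tdTomato signal and made into 10x Genomics droplet libraries that count the 3′ ends of transcripts with unique molecular identifiers (UMIs). All 4 samples carry the same labels apart from a replicate number, so there is 1 group, and the sorted cells with low signal were not analysed here. The labels do not give the number, age or sex of the animals, and the sort leaves cells with little reporter signal out of view.

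The 4 labelled replicates held the same cells. Each pair shared between 5946 and 5965 barcodes, 99.9% of the smaller matrix, and between 99.7% and 99.9% of cells had a profile closer to the one under the same barcode in another matrix than to any of 100 drawn at random. They were therefore treated as 4 repeat libraries of 1 sample. Values are means over the 4 libraries, no test between conditions could be made, and the 95% intervals cover counting error only. The libraries held 62627341 to 68898900 UMIs, and of 5985 barcodes, after about 10000 cells had been loaded per the labels, 5481 were kept (at least 1000 genes and under 10% mitochondrial UMIs), with a median of 11049 UMIs per library. Markers of muscle progenitors and differentiating muscle cells were abundant (Myod1 507 CPM, Myog 1803 CPM, Pax7 57.1 CPM, where CPM is UMIs per 1000000), while Calcr and Cd34, which mark resting muscle stem cells, were at 0.26 and 0.25 CPM. The 16 markers of fibroblasts, endothelial, immune and Schwann cells lay between 0.00 and 1.39 CPM, with Kdr and Sox10 at or near 0, and of the 6 smooth muscle or pericyte markers the highest was Cspg4 at 12.3 CPM while Myh11 was at 0.30 CPM.

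The members differ greatly in gene length. By GENCODE M21 on GRCm38, Dmd lies on chrX:82948870-85206141 (plus strand) and spans 2257 kb, the longest of the 8. Sgcd, for delta-sarcoglycan, spans 1093 kb (chr11:46896253-47988969, minus strand) and Utrn 487 kb (chr10:12382188-12869365, minus strand). Sgce (chr6:4674350-4747207), Dag1 (chr9:108204634-108263958), Sspn (chr6:145931641-145965223), Sgcb (chr5:73632749-73647790) and Sgca (chr11:94962791-94976327) span 72.9, 59.3, 33.6, 15.04 and 13.5 kb. Hils1 lies opposite Sgca, Sspnos opposite Sspn and Tsga8 opposite Dmd, and whether counting used the strand is not stated, so reads of such pairs are uncertain.

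Dmd has several start sites. GENCODE M21 lists 3 coding transcripts, a 14.9 kb one that starts at base 82948903 of chromosome X and a pair of shorter ones that start inside the gene at base 85048413. UMIs are summed per gene, so the long muscle form and the short forms made from the inner start cannot be told apart here, and the same holds for the 8 coding transcripts of Utrn. RefSeq promoter windows (GRCm38.p6, 250 bases before to 50 after a start) were found for 7 of the 8 members, 10 windows in all. The windows below show the contrast between the outer and the inner start of Dmd, and Utrn and Sgca for comparison. The inner Dmd window follows the RefSeq start. It ends at base 85048344, before the GENCODE start at 85048413, which it does not hold. The Utrn window lies inside the gene, which on the minus strand begins at base 12869365. The 8 coding transcripts of Utrn have 8 distinct starts, and which of them were in use was not tested. Capitals mark E-boxes (CANNTG, bound by MyoD and related factors), CArG boxes (bound by serum response factor), MEF2 sites and MCAT motifs (CATTCC), searched on both strands. Bases are counted from the start.
Dmd outer start, chrX:82948620-82948919, plus strand: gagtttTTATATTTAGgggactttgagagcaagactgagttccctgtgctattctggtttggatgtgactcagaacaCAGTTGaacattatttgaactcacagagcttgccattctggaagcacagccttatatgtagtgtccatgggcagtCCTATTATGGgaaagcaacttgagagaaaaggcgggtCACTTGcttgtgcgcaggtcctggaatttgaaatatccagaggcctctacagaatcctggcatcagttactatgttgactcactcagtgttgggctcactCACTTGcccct
Dmd inner start, chrX:85048045-85048344, plus strand: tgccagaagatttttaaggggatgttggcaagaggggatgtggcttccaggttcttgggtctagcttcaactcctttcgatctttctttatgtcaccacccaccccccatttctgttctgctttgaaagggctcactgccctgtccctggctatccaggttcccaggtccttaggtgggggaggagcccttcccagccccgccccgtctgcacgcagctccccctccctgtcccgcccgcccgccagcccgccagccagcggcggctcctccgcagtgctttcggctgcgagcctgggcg
Utrn, chr10:12861686-12861985, minus strand: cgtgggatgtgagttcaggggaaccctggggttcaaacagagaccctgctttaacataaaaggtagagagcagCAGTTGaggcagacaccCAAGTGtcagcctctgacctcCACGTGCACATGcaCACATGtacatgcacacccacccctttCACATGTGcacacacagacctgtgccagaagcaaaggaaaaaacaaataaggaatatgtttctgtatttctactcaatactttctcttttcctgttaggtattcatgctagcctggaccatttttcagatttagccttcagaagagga
Sgca, chr11:94976278-94976577, minus strand: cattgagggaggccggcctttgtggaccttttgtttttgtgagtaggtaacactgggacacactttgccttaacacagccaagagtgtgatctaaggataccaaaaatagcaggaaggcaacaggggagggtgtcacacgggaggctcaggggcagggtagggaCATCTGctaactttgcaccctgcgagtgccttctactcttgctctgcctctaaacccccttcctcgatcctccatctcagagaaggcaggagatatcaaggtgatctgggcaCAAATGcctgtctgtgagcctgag

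The outer Dmd window held 3 E-boxes (CAGTTG at -173, CACTTG at -61 and at 40), the CArG box CCTATTATGG at -98 and the MEF2 site TTATATTTAG at -244. A CArG box stood in 1.63% and a MEF2 site in 3.19% of all 32851 RefSeq windows, whereas a CANNTG stood in 72.3%. The inner Dmd window held none of these motifs and was richer in G and C, at 62.7% against 45.7% for the outer one and a median of 52.7% over all windows. The Utrn window, which lies inside the gene, held 7 E-boxes, of which CACATG and CATGTG at -98 and -96 overlap. The Sgca window held 2 (CATCTG at -86 and CAAATG at 27). Of the windows not shown, that of Sgcd held 2 E-boxes and a MCAT motif. It too lies inside its gene, at chr11:47379276-47379575, while the gene begins at base 47988969 on the minus strand. Both Sspn windows held a MCAT motif (14.7% of all windows) and the second of them an E-box. Both Dag1 windows held 1 E-box, and the Sgcb window no motif. CAGCTG, in 16.3% of all windows, was in none of the 10. These are matches of letters and no measure of binding.

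In all kept cells, Dmd was at 360.3, 360.0, 360.6 and 358.3 CPM in the 4 libraries, a mean of 359.8 (355.3 to 364.4). Utrn was at 263.6, 263.2, 263.8 and 265.2 CPM, a mean of 264.0 (260.0 to 267.9). The libraries thus repeated each other within counting error. Dag1 was at 118.5 CPM, and the sarcoglycans Sgcb, Sgca, Sgce and Sgcd were at 72.3, 54.0, 19.1 and 9.72 CPM. Sspn, for sarcospan, was at 69.4 CPM. CPM was not divided by length, because a 3′ count is meant to be made at the end of a transcript. Whether reads in introns were also counted is not stated, and a dependence of these levels on gene length was not tested. Levels are compared below mainly between cells for the same gene. Some ratios and shares of cells set different genes side by side. How well each gene was captured was not measured, so those values do not rank the genes by true level. A level averaged over cells in place of over UMIs was 328.4 CPM for Dmd and 259.8 CPM for Utrn.

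Cells were then ordered by Myog, which encodes myogenin, the factor that marks the step from dividing myoblast to differentiating myocyte. In cells below 100 CPM of Myog, Dmd was at 33.8, 34.2, 32.9 and 33.8 CPM in the 4 libraries, and in cells at 4000 CPM of Myog or more it was at 731.6, 738.6, 730.4 and 734.0 CPM. The values of the end bins did not come near each other in any library. The libraries hold the same cells, binned on the 4 libraries summed, so this is no independent repeat. The rise was 21.8-fold, a log2 ratio of 4.45 (4.34 to 4.55). It was not even: Dmd went from 33.7 to 64.9 CPM at 100 to 500 CPM of Myog, then to 389.0 and 760.6 CPM in the next bins, and the highest bin at 733.7 CPM was no higher than the bin before it. Utrn had 287.0, 273.7, 254.2, 256.0 and 230.5 CPM along the same bins, a log2 ratio of -0.32 (-0.38 to -0.25).

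A gene counts as risen or fallen here when its end bins differed at least 2-fold with the same sign in all 4 libraries and it had at least 50 UMIs in each. Over all 11850 genes tested along Myog, 8.82% rose and 29.8% fell (38.7% in all), and the median log2 ratio was -0.43. Of the 8 members 4 rose (Dmd, Dag1, Sgca and Sgcd) and 1 fell (Sgce). Dag1 went from 76.2 to 159.8 CPM (log2 1.07, 0.97 to 1.16) and Sgca, for alpha-sarcoglycan, the form made in striated muscle, from 36.4 to 74.4 CPM (log2 1.03, 0.89 to 1.17). Sgcd went from 4.69 to 12.8 CPM, after 18.1 CPM at 2000 to 4000 CPM of Myog. Sgce, for epsilon-sarcoglycan, a relative of alpha-sarcoglycan that is widely made outside muscle, fell from 28.2 to 6.67 CPM, a log2 ratio of -2.08 (-2.43 to -1.73). Sgcb, for beta-sarcoglycan, went from 51.0 to 99.0 CPM (log2 0.96), just short of the threshold, and Sspn from 61.3 to 72.7 CPM (log2 0.25).

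The opposite moves of Sgca and Sgce over all kept cells also show in the ratio of their UMIs. Both were summed over the cells of a bin, so the ratio was not read cell by cell. There were 1.29 Sgca UMIs per Sgce UMI (1.16 to 1.43) in the lowest Myog bin and 11.1 (8.82 to 14.1) in the highest. Dmd UMIs per Utrn UMI went from 0.117 to 3.18, between 3.11 and 3.25 in the single libraries. Dag1 and Sgca lie near the threshold and missed it at 5000 UMIs per cell (log2 0.95 and 0.87), which left 3 members. Scaling by TMM or by median ratios moved the median of all genes from -0.43 to -0.08 or -0.04 and every ratio with it, so that 12.7% or 13.1% rose and 21.8% or 21.3% fell, Sgcb also passed, and Utrn changed sign to 0.04 or 0.08.

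**Figure D1:**
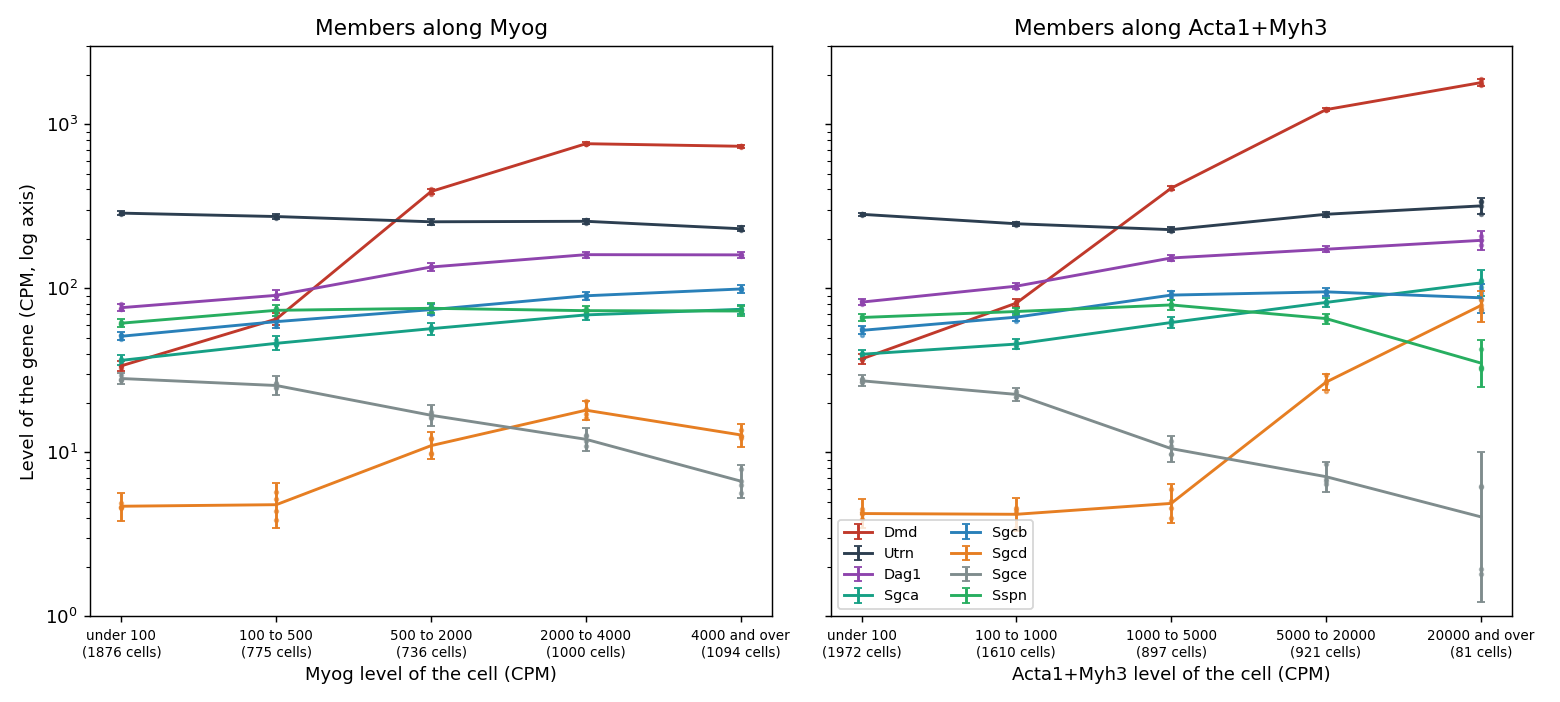
Level of the 8 members (CPM, log axis) in bins of the cells' Myog (left) and summed Acta1 and Myh3 level (right). Lines join means over 4 libraries, dots are single libraries and bars are 95% counting intervals. Dmd rises from 33.7 to 733.7 CPM on the left and from 37.0 to 1792 CPM on the right, Sgce falls, and Utrn stays between 228 and 318 CPM on both sides.

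A later step of differentiation was read from Acta1 and Myh3, which encode skeletal alpha-actin and embryonic myosin heavy chain. Below 100 CPM of their sum, Dmd was at 36.5, 37.5, 37.4 and 36.8 CPM, and at 20000 CPM or more at 1737, 1812, 1874 and 1746 CPM. No library of the low bin came near those of the high bin, though again all hold the same cells, binned on the libraries summed. The log2 ratio was 5.60 (5.48 to 5.71), or 48.4-fold. Between them Dmd passed through 81.2, 407.4 and 1227 CPM, so that it went up at every step. Utrn was at 282.3, 247.3, 227.6, 282.5 and 317.8 CPM, lowest in the middle bin.

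Along this order 7.41% of 11318 genes rose and 33.0% fell (40.4% in all), with a median log2 ratio of -0.59, and again 4 members rose (Dmd, Dag1, Sgca and Sgcd) and 1 fell (Sgce). Sgcd behaved unlike the other sarcoglycans: it was at 4.23, 4.19 and 4.88 CPM in the first 3 bins, then at 26.8 and 78.5 CPM. Its values in the 4 libraries were 4.31, 4.52, 3.91 and 4.19 CPM in the lowest bin and 73.9, 79.5, 76.1 and 84.6 CPM in the highest, an 18.5-fold rise (log2 4.21, 3.77 to 4.64). Sgca went from 39.6 to 107.9 CPM (log2 1.45) and Dag1 from 82.3 to 195.9 CPM (log2 1.25). Sgcb reached 90.9 CPM in the middle bin and ended at 87.5 CPM (log2 0.66). Sgce fell from 27.3 to 4.04 CPM (log2 -2.76, -4.79 to -1.54), the last a mean of 4.5 UMIs per library. Sspn was at 79.1 CPM in the middle and 34.996 CPM in the highest bin (log2 -0.92).

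The highest bin held 81 cells. With the 921 cells at 5000 to 20000 CPM as the upper end, Dmd had a log2 ratio of 5.05, Utrn 0.00 and Sspn -0.02. Sspn passed as fallen without replicate 2 (log2 -1.02), without the highest Scrublet scores (log2 -1.01) or at 5000 UMIs per cell (log2 -1.07), and Sgca missed the threshold between the lowest and highest quintile of cells (log2 0.99). Under TMM or median-ratio scaling 11.2% or 11.9% of genes rose and 21.6% or 20.3% fell, and Sgcb passed as well.

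**Figure D2:**
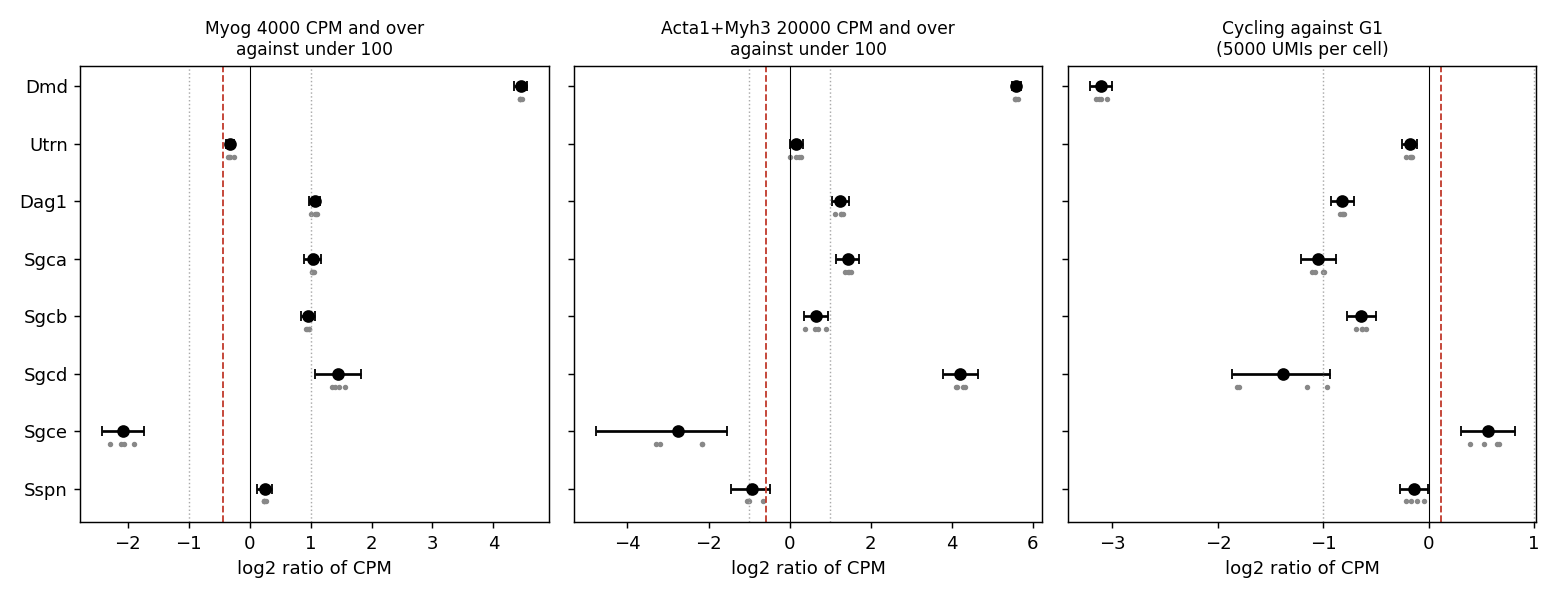
Log2 ratio of CPM of each member for the highest against the lowest Myog bin, the highest against the lowest Acta1+Myh3 bin, and cycling against G1 cells. Black dots with bars are means with 95% counting intervals, grey dots single libraries, the dashed line the median of all genes tested and dotted lines a 2-fold difference. Dmd stands farthest out in each panel, at 4.45, 5.60 and -3.11.

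Among cells already high in Myog (2000 CPM or more), Dmd still followed Acta1 and Myh3. It was at 86.9, 149.1, 420.1, 1197 and 1664 CPM along their bins. Between 100 to 1000 and 5000 to 20000 CPM of Acta1+Myh3 in these cells, the log2 ratio was 3.01 (2.88 to 3.13) for Dmd, 0.55 for Utrn, 0.47 for Dag1, 0.53 for Sgca, 0.07 for Sgcb, 4.05 for Sgcd, -1.25 for Sgce and -0.41 for Sspn, beside a median of -0.30 over all genes. In the other direction, at a fixed 5000 to 20000 CPM of Acta1+Myh3, Dmd did not go up with Myog: it was at 1482, 1455 and 1030 CPM in cells with 500 to 2000, 2000 to 4000 and at least 4000 CPM of Myog. At 100 to 1000 CPM of Acta1+Myh3 it was at 39.7 CPM in cells below 100 CPM of Myog and at 152.0 CPM in those at 2000 to 4000 CPM. In cells below 100 CPM of Myog, Dmd was at 30.8 CPM with little and 39.7 CPM with more Acta1+Myh3.

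Single cells varied far more in Dmd than in Utrn. Along the Acta1+Myh3 bins the median cell had 0, 0, 116.6, 999.0 and 1348 CPM of Dmd and 240.7, 202.8, 184.6, 231.7 and 280.8 CPM of Utrn. At 4000 CPM of Myog or more, 167 of 1094 cells had no Dmd UMI in any library, while the upper quartile was 1066 CPM. At 5000 to 20000 CPM of Acta1+Myh3, 34 of 921 cells had none. The share of cells with more Dmd than Utrn UMIs at 5000 UMIs per cell went from 4.75% (3.82% to 5.83%) to 88.0% (78.7% to 94.2%) along Acta1+Myh3, and from 4.12% to 55.0% along Myog.

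**Figure D3:**
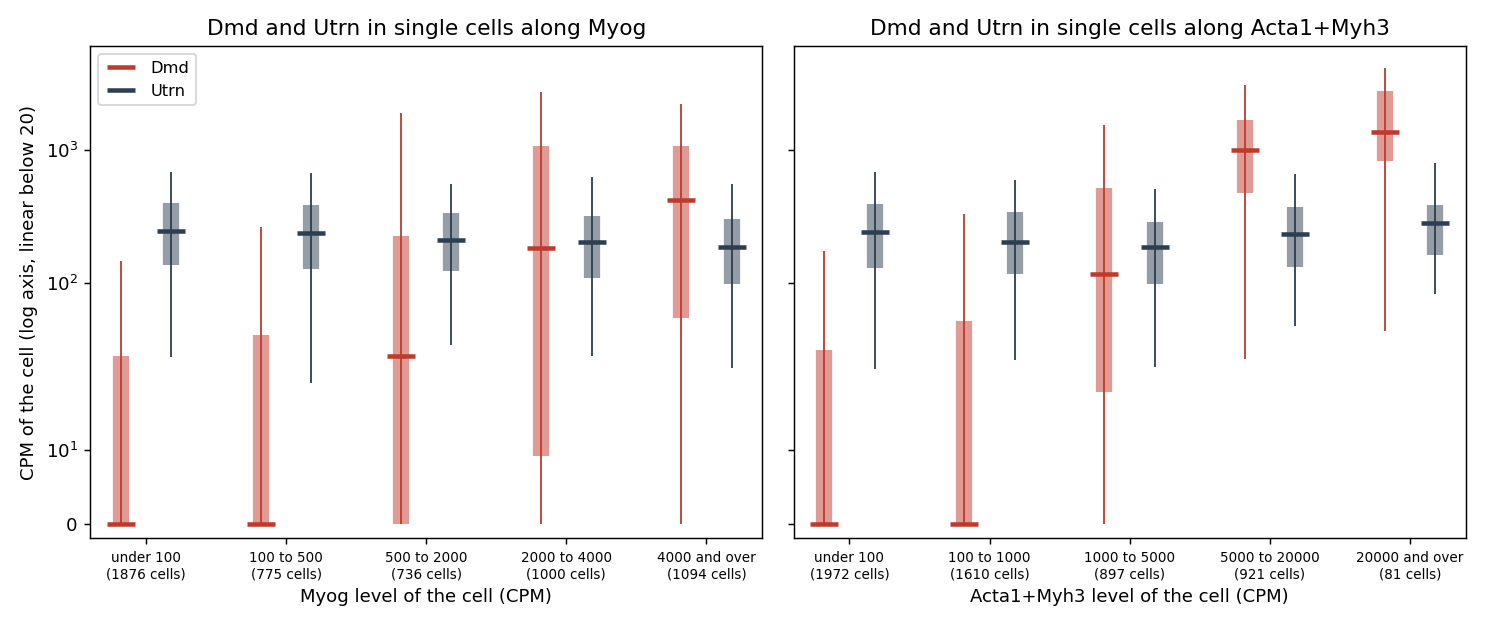
Dmd and Utrn in single cells (CPM from the 4 libraries summed, log axis that is linear below 20) along Myog (left) and Acta1+Myh3 (right). Short lines are medians, thick bars the middle 50% of cells and thin lines the 5th to 95th percentile. The median of Dmd moves from 0 to 1348 CPM on the right, while that of Utrn stays between 184.6 and 280.8 CPM.

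At 5000 UMIs per cell, at least 1 UMI of Utrn was seen in 64.2% of 5197 cells, of Dag1 in 41.4%, of Dmd in 34.3%, of Sgcb in 30.01%, of Sspn in 29.1%, of Sgca in 23.0%, of Sgce in 8.80% and of Sgcd in 3.21%. Without thinning the shares of Utrn and Dmd were 82.7% and 42.1%. Dmd was seen in 11.1% (9.62% to 12.6%) of cells below 100 CPM of Myog and in 67.1% (64.2% to 69.9%) of those at 4000 CPM or more, and Utrn in 68.1% and 60.8%. Without thinning these shares were 19.6% and 73.4% for Dmd and 84.3% and 79.8% for Utrn. RNA set free from broken cells can put UMIs into droplets whose cell does not make the gene, and late muscle genes were used to read its size. Actc1, for cardiac alpha-actin, was seen in 15.7% and Mylpf, for a fast myosin light chain, in 47.4% of the cells low in Myog. The Dmd level left in the lowest Myog bin was 4.59% of that in the highest, beside 0.83% to 3.64% for 5 late muscle genes (Actc1, Ckm, Myl1, Mylpf and Tnnc2). For Utrn, Dag1, Sgca, Sgcb and Sspn it was at least 47.7%, and for Sgcd it was 36.8%. Between the end bins of Acta1+Myh3 it was 2.07% for Dmd and 5.39% for Sgcd, beside 0.41% to 1.36% for the same late genes. The share of Dmd-positive cells low in Myog thus lay below that of Actc1, while the remaining level lay above those of all 5 late genes. The Dmd level was also uneven among cells below 100 CPM of Myog, at 52.0 CPM in G1 and 26.4 CPM in cycling cells at 5000 UMIs per cell. The part of free RNA in it was not tested.

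Cycling cells were compared with G1 cells at 5000 UMIs per cell, by phase scores from 43 S and 54 G2/M genes. Dmd was at 64.7 CPM in cycling and 558.0 CPM in G1 cells, 8.63-fold lower, and its log2 ratio was -3.06, -3.12, -3.15 and -3.11 in the 4 libraries. Utrn was at 239.5 against 271.3 CPM (log2 -0.18, -0.25 to -0.11). Of 11337 genes 10.2% were higher and 6.32% lower by the 2-fold rule (16.6% in all), with a median of 0.11, and 3 members fell: Dmd, Sgcd (4.49 against 11.8 CPM) and Sgca (35.1 against 72.6 CPM, log2 -1.05). Dag1 had 84.8 against 149.6 CPM (log2 -0.82), Sgcb 56.8 against 88.5 CPM (log2 -0.64) and Sspn 69.3 against 76.1 CPM (log2 -0.14). Sgce had a ratio above 0, 23.5 against 15.98 CPM (log2 0.56). In S and G2/M cells Dmd was at 51.5 and 70.8 CPM and Sspn at 52.5 and 77.1 CPM. RNAs that stay in the nucleus differed too. In cycling against G1 cells Malat1 was at 5619 against 10578 CPM (log2 -0.91). Neat1 was at 127.4 against 237.0 CPM and Kcnq1ot1 at 134.5 against 207.6 CPM, while Xist was higher, at 408.4 against 327.3 CPM. The part of nuclear RNA content in the cycling to G1 ratios, here and within bins, was not tested.

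Droplets that hold a pair of cells were looked for with Scrublet. Scrublet's own threshold marked 0 of 5481 cells, and the reason was not examined. How well its scores find such droplets here was not tested. The cells with the highest 5% of scores were set aside instead. They held 41 of the 52 cycling cells at 5000 CPM of Acta1+Myh3 or more and 18 of the 1248 cycling cells below 100 CPM of Myog. Without them the log2 ratio of Dmd was -3.86 and that of Dmd minus Utrn -3.67, in place of -2.93. With cycling read from a UMI of Mki67 or Top2a, Dmd was at -2.34 and Sgca, at -0.86, no longer passed.

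Cycling cells were mostly low in Myog: 66.5% of cells in the lowest and 8.78% in the highest Myog bin were cycling. Within the 5 Myog bins, from low to high, the cycling to G1 log2 ratio was -0.98, -0.99, -2.18, -2.31 and -2.08 for Dmd and -0.39, -0.42, -0.29, -0.46 and -0.53 for Utrn. For Sgca it was -1.17, -0.92, -0.95, -0.60 and -0.59, and for Dag1 -0.58, -0.53, -0.50, -0.61 and -0.45. In the upper Myog bins the groups also differed in Acta1+Myh3, at 1667 CPM in cycling and 6029 CPM in G1 cells with 2000 to 4000 CPM of Myog. Cells with Myog at 2000 CPM or more were therefore compared within 3 bins of Acta1+Myh3. At 100 to 1000 CPM, Dmd was at 43.5 CPM in 123 cycling and 198.0 CPM in 223 G1 cells (log2 -2.19, -2.81 to -1.59), and Utrn had a log2 ratio of -0.39 (-0.75 to -0.03). At 1000 to 5000 CPM, Dmd was at 232.2 CPM in 132 cycling and 453.6 CPM in 586 G1 cells (log2 -0.97, -1.22 to -0.73), and without the highest Scrublet scores at 135.4 against 452.6 CPM (log2 -1.74). Utrn in this middle bin had a log2 ratio of -0.06 (-0.34 to 0.22) and Sgca -0.24 (-0.81 to 0.27). At 5000 to 20000 CPM, Dmd had a log2 ratio of -1.13 (-1.45 to -0.82) over 32 cycling cells, beside a median of 0.08 over all genes. Over the 10 left without the highest Scrublet scores it was -2.59 (-3.61 to -1.67). There Dmd rested on a mean of 9.75 UMIs per library in cycling cells, and the median of all genes was 0.66. Dmd was thus lower in cycling cells in all 3 bins, by an amount that differed between them.

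The reverse view, along Myog within 1 phase, separates the members. In G1 cells Dmd went from 52.0 to 737.1 CPM between the lowest and highest Myog bin (log2 3.82, 3.58 to 4.07) and in cycling cells from 26.4 to 174.7 CPM (log2 2.73, 2.33 to 3.14). Sgce in G1 cells went from 36.4 to 5.85 CPM (log2 -2.64) and Sgcd from 2.39 to 12.3 CPM (log2 2.37). Sgca, however, was at 64.1 and 74.2 CPM in G1 cells (log2 0.21, -0.05 to 0.48), so the 2-fold rise along Myog seen over all cells was not found among G1 cells. In G1 cells Sgce thus fell without a 2-fold rise of Sgca. In cycling cells Sgca went from 28.5 to 49.4 CPM (log2 0.79, 0.09 to 1.44) and Sgcb from 45.5 to 96.6 CPM (log2 1.09, 0.59 to 1.55), with 89 cells in the highest bin. Dag1 had a log2 ratio of 0.61, Sgcb 0.68, Sspn -0.15 and Utrn -0.58 (-0.70 to -0.45) in G1 cells, beside a median of -0.29 over all genes.

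**Figure D4:**
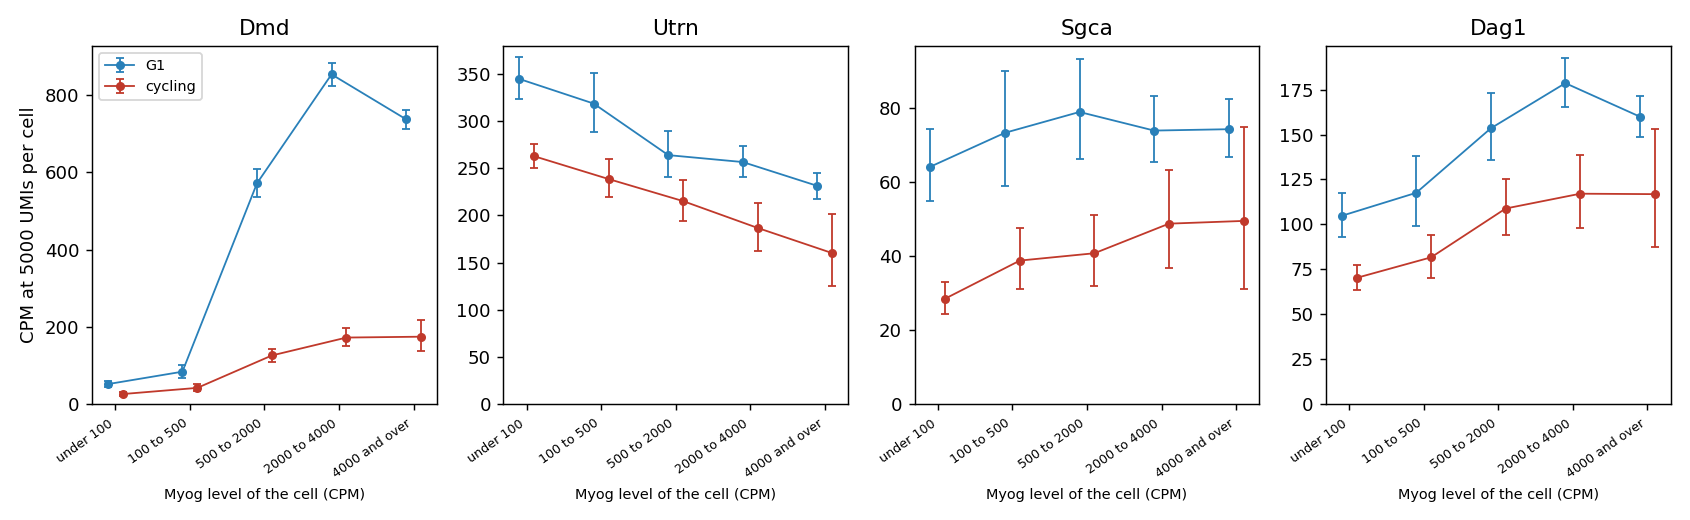
Dmd, Utrn, Sgca and Dag1 (CPM at 5000 UMIs per cell) in G1 and cycling cells of each Myog bin. Dots are means over 4 libraries and bars 95% counting intervals. G1 cells lie above cycling cells in every bin, and the gap for Dmd is widest at 2000 to 4000 CPM of Myog, with 853.4 against 172.5 CPM.

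Members were also compared between cells poor and rich in Malat1, an abundant RNA that stays in the nucleus. There were 467 cells below 1000 CPM of Malat1. In these, Dmd was at 20.3 CPM against 383.5 CPM in the other 5014 cells, 18.9-fold lower (log2 -4.24, -4.56 to -3.94). Utrn was 4.43-fold lower, at 62.7 against 278.0 CPM, Sgcd 3.60-fold lower and Dag1 2.06-fold lower. Of all 12895 genes 25.7% were lower and 0.582% higher by the 2-fold rule, and of the members these 4 were lower. Sgca, the shortest member, was at 57.5 against 53.7 CPM (log2 0.10, -0.10 to 0.28). Sgcb, Sgce and Sspn had log2 ratios of -0.38, -0.54 and -0.63.

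Over all genes the same ratio went down with gene length. Its median was 0.24 for genes under 10 kb, -0.18 for 10 to 30 kb, -0.76 for 30 to 100 kb, -1.38 for 100 to 300 kb, -2.11 for 300 to 1000 kb and -2.29 for the 34 genes of 1000 kb or more. Utrn, at -2.15, lay near the median of its length class, Sgcd, though longer, was at -1.85, and Dmd lay below the middle 50% of its class (-2.88 to -1.70). The gap of Dmd differed with the state of the cells. Below 100 CPM of Myog, Dmd was 3.02-fold lower in Malat1-poor cells (log2 -1.59, -2.29 to -1.0004), less than Utrn at 4.62-fold (log2 -2.21, -2.48 to -1.95). At 4000 CPM of Myog or more Dmd was 15.97-fold and at 5000 CPM of Acta1+Myh3 or more 13.3-fold lower in Malat1-poor than in other cells. Within Malat1-poor cells Dmd still went from 10.4 to 12.4, 26.7 and 110.5 CPM along the first 4 Acta1+Myh3 bins, and in the other cells, along all 5 bins, from 39.8 to 86.7, 421.1, 1256 and 1920 CPM. Malat1-poor cells were 10.8% of the lowest and 6.12% of the highest Myog bin. They were 234 of 1972 cells below 100 CPM of Acta1+Myh3, 32 of 921 at 5000 to 20000 CPM and 7 of 81 at 20000 CPM or more. The ratios over all kept cells thus also carry differences in cell state, and medians by gene length were not computed within a state. Without them the log2 ratio of Dmd minus Utrn was 4.79 along Myog, beside 4.76 with them. Whether reads in introns were counted is not stated for these matrices, and their part in the Dmd and Utrn levels was not tested.

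**Figure D5:**
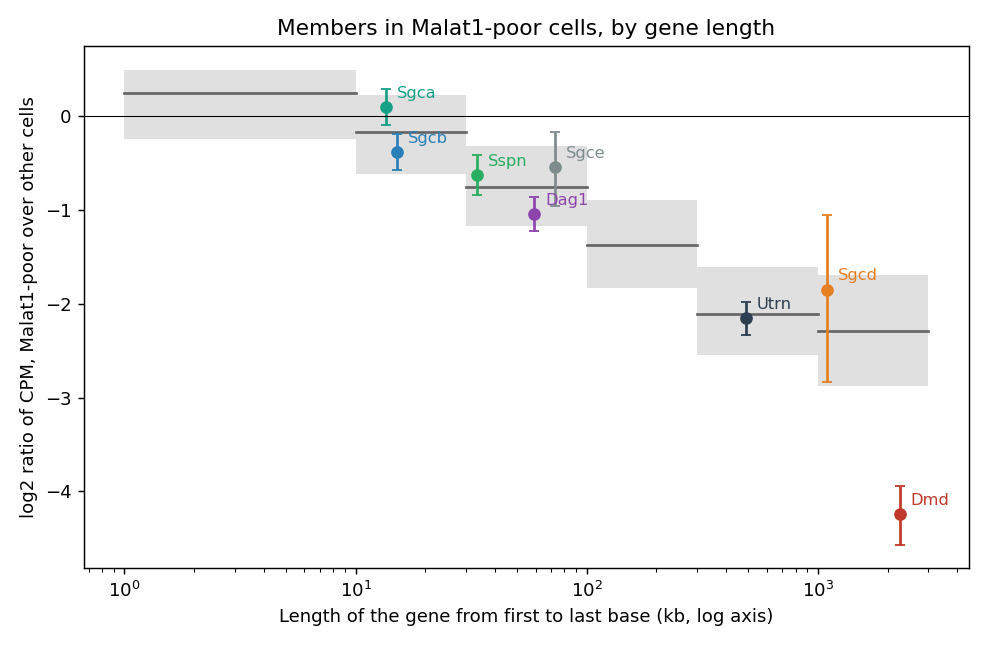
Log2 ratio of CPM between 467 Malat1-poor and 5014 other cells against the length of the gene (kb, log axis). Dots with bars are the members with 95% counting intervals, and grey lines and bands are the median and the middle 50% of all genes in 6 length classes. Members follow the bands from Sgca at 0.10 to Utrn at -2.15, and Dmd lies below them at -4.24.

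The rest of the complex was read from a list of 11 further genes, of which 8 could be tested. Along Myog 5 rose, beside 8.82% of all genes, and 2 fell, near the 29.8% of all genes that fell. The median log2 ratio was 1.81 beside -0.43 over all genes. Cav3, for the muscle caveolin, went from 3.61 to 248.6 CPM, Sntb1, for a syntrophin that binds dystrophin, from 35.7 to 798.0 CPM, and Dtna, for alpha-dystrobrevin, from 57.0 to 548.7 CPM. Nos1, for the nitric oxide synthase that the complex anchors, was at 6.09 and 11.7 CPM, short of the threshold. The genes that fell, named after their values were seen, were Dtnb (32.1 to 7.99 CPM) and Sntb2 (40.6 to 6.79 CPM), a dystrobrevin and a syntrophin with wide expression outside muscle. Along Acta1+Myh3 the same 5 rose, and Dtnb, Sntb2 and Nos1 fell, the last with under 3 UMIs per library in the highest bin. Of all genes 7.41% rose and 33.0% fell along this order. In cycling cells 5 of 8 were lower, beside 6.32% of all genes, Cav3 by the most at 15.3 against 156.5 CPM.

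Dystroglycan's partners outside the cell and the enzymes that build its sugar chains did not rise with it. Of 10 tested ligands along Myog 0 rose and 7 fell, beside 29.8% of all genes, with a median of -1.30. Along Acta1+Myh3 0 rose and 5 fell, beside 33.0% of all genes, and their median of -0.64 was close to that of all genes (-0.59). Nid1, for nidogen, went from 19.3 to 2.21 CPM, the laminin chain genes Lamb1 from 44.5 to 5.32 CPM and Lama2 from 290.2 to 110.8 CPM, and Bgn, for biglycan, from 207.5 to 58.7 CPM. Lama2 was no lower at the top of Acta1+Myh3, at 313.1 against 279.9 CPM. Of 16 tested glycosylation genes 0 rose and 4 fell, among them B3galnt2, Dpm3 and B4gat1 (log2 -1.24, -1.12 and -1.03), near the share of all genes that fell, with a median of -0.63. Of 14 tested genes of the costamere and the integrin link 2 rose and 2 fell, beside 8.82% and 29.8% of all genes. Flnc, for filamin C, a dystrophin-complex partner, went from 60.3 to 207.2 CPM and Des, for desmin, from 780.4 to 1613 CPM. Tln2 went from 230.4 to 46.8 CPM and Ank3 from 88.4 to 37.0 CPM. In cycling cells Nid1 was the ligand gene that was higher, at 13.1 against 6.36 CPM, and Flnc fell, at 68.0 against 166.3 CPM. Of all genes 10.2% were higher and 6.32% lower in cycling cells.

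Patterns were also compared over 24 groups of at least 50 cells, made from Myog bin, Acta1+Myh3 bin and phase. Among 3052 genes of at least 50 CPM, the 5 most like Dmd by Pearson correlation of log2(CPM + 1) included Flnc (0.976), Fyn (0.973), Akap6 (0.972) and Mef2c (0.972), the last encoding a MEF2 factor. Most like Utrn were Camk2d (0.908), Gm4258 (0.874), Ogt (0.855), Pcdh7 (0.852) and Clta (0.852), and most like Sgca were Gamt (0.962), Pbxip1 (0.961), Ogn (0.950), Igf2 (0.949) and Srp14 (0.944). Dmd correlated with Dag1 at 0.91, Sgcb at 0.78, Sgca at 0.75, Sgcd at 0.63, Sspn at 0.02, Utrn at 0.01 and Sgce at -0.81. The groups share their libraries, so these are descriptions.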

How the data were processed

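Single-cell libraries of 1 group of sorted mouse muscle cells, 4 labelled replicates, were analysed. The matrices deposited hold counts of UMIs, not normalized, for every gene in every called barcode. Cell Ranger 7.1.0 produced them per the file headers, while the submitters' processing notes name Cell Ranger 3.1.0 and the builds mm10 and GRCm39. The rule for calling barcodes and the counting of intronic reads are not given in the sources used here. Of 32285 gene identifiers 32158 were found in GENCODE M21 (GRCm38), which gave the coordinates. RefSeq gave the promoter windows.

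Of 5944 barcodes in all 4 matrices, the 5481 with 1000 or more genes (mean of the matrices) and less than 10% of UMIs from mitochondrial genes were kept. CPM came from UMIs summed per library and group of cells. Levels carry exact Poisson, shares Clopper-Pearson and log2 ratios exact conditional binomial 95% intervals at the mean count of 1 library. A side under 3 UMIs was set to 3, and its ratio is a bound. For phases and shares each cell was thinned to 5000 UMIs per library (5197 cells). Phases and Scrublet scores (expected rate 5%) came from scanpy 1.11.5 on the summed counts, with numpy 2.4.6 and scipy 1.17.1. The calling rule was tested on simulated data. UMIs stand for molecules. Whether the libraries share molecules was not tested, and the intervals cover counting error and no spread among mice or cultures. No batch is named in the labels.

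The members and lists were chosen with earlier results of these data known. Genes named beyond the members were, per list, up to 4 called genes with the largest Myog ratio, with Dtna, Cav3 and Nos1 among those named in any case, and the 5 genes most like Dmd, Utrn and Sgca. Some genes that this rule names are not reported here, though counts and medians of lists include them. Stratified values by phase with matched Acta1+Myh3 were added after the data were seen. Alternatives covered scaling, pseudocount, cell filters, bins, depth and single libraries.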

Additional observations from a re-analysis of the deposited data

Results flagged for a closer look

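Sspn stood out in 1 library along Acta1+Myh3: its log2 ratio was -0.66 in replicate 2 and -0.997, -1.05 and -1.02 in replicates 1, 3 and 4. Of 32 such sets of 4 values examined, 1 stood apart in this way, and chance alone would single out about 1 in 20 sets.

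Sgce and Sspn had cycling to G1 ratios of opposite sign at the ends of the Myog order. For Sgce the log2 ratio was -0.43 below 100 CPM of Myog and 0.87 at 4000 CPM or more, and for Sspn it was -0.31 and 0.37. All 4 libraries had the same sign in each case, but they hold the same cells, the intervals at the upper end include 0 (-0.78 to 2.35 and -0.14 to 0.85), and the difference between the ends was not tested.

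The 463 barcodes left out of all comparisons, with a median of 1207 UMIs and 40.9% mitochondrial UMIs, were rich in the long members. Computed without mitochondrial UMIs, Dmd was at 3620 CPM in them and 373.2 CPM in kept cells, Utrn at 1261 and 273.8 CPM, and Sgcd at 174.8 and 10.1 CPM. Dag1 was at 199.7 and 122.9 CPM, Sgce at 50.9 and 19.8 CPM, and Sspn at 78.2 and 72.0 CPM. Sgca, at 47.0 against 56.0 CPM, and Sgcb, at 62.2 against 75.01 CPM, were not higher. Malat1 was at 35237 and 8769 CPM and Myog at 813.8 and 1870 CPM in the same barcodes. Sgcd, Dmd and Utrn, the longest members, had the highest ratios (log2 4.12, 3.28 and 2.20), and the cause was not tested.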

How the results depend on the processing

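No paired analysis was possible because there is only 1 group, whose 4 libraries hold the same cells. Leaving out each library in turn gave counts of changed members of 5 to 5 along Myog, 5 to 6 along Acta1+Myh3 (6 without replicate 2) and 3 to 3 in cycling cells, and Dmd minus Utrn log2 ratios of 4.74 to 4.78, 5.36 to 5.47 and -2.94 to -2.91. Of the main counts and Dmd minus Utrn ratios, 79 alternatives stayed within the interval or within 1.5 times the count, 6 moved and 0 reversed. Thinning to 5000 UMIs gave 3 members along Myog in place of 5. Dmd minus Utrn along Acta1+Myh3, 5.43 as reported, was 5.16 between the lowest and highest quintile of cells and 5.05 with the 5000 to 20000 CPM bin on top, an alternative chosen after the data were seen. In cycling cells it was -3.67 without the highest 5% of Scrublet scores, -2.32 by Mki67 or Top2a and -2.69 without thinning, in place of -2.93. Among single levels, shares and ratios of members, 321 alternatives stayed and 95 moved, and none of those that had passed the 2-fold rule changed sign. Depth limits Sgcd and Sgce most, with 4.5 Sgce UMIs per library in the highest Acta1+Myh3 bin.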
